A study of Mus musculus with 2 samples.

Results

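The densest autosomal megabase bins are the 478 stretches of 1000 kb on chromosomes 1 to 19 that held the most sequenced fragment ends in the 2 libraries of the study together. They were taken from 2392 bins with 100 or more distinct positions and are those ranked highest on the sum over both libraries. A position is a chromosome, 5′ end and strand, counted once however many reads share it. A set of 478 bins in the middle of the same ranking, from 2135 to 2676 positions, served for comparison and is termed the middle bins. Because the members were chosen on this sum, their density is a description and was not tested. The split of the positions between the libraries, the share of repeated reads and the spacing of reads were not used to choose them.

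The reads came from chromatin immunoprecipitation followed by sequencing (ChIP-seq), in which DNA recovered with an antibody is sequenced, here with the antibody sc-30486 against Tnni2. The Tnni2 protein is the troponin I of fast-twitch muscle fibres, which holds contraction in check until calcium rises. Both libraries were made from primary osteoblasts, the bone-forming cells, of 129sv mice. The mutant library is from animals carrying the del175k allele of Tnni2 on both chromosomes, the other from their wild-type littermates. An n of 3 is stated for the series, without saying whether animals were pooled. Ages and culture times are not given in the labels, and an input library was not analysed here. With 1 library per genotype no difference has a replicate check, no p-value is given, and library and genotype cannot be told apart. Genomic reads carry no marker of cell type, so the osteoblast label was not checked.

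Most reads of a ChIP-seq library fall outside bound sites and cover the genome broadly. It is general knowledge that this broad coverage is uneven over megabases, and that it varies with base composition, with how uniquely the sequence can be aligned and with how open the chromatin is. Mouse chromosomes have their centromere at the end where numbering starts, next to unassembled satellite repeats. Chromosome 11 is among the most gene-rich of the mouse and chromosome 3 among the gene-poor ones. Gene and base content were not measured here. Coordinates are those of the deposited reads, 1-based, and their genome build is uncertain.

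The libraries held 2927228 (mutant) and 2821498 (wild type) distinct positions on the autosomes, from 3189487 and 3193402 reads. The densest bins held 831748 of the mutant positions (28.4%) and 865111 of the wild-type positions (30.7%). A member had a median of 1700 positions in the mutant library, with 1480 at the lowest and 4757 at the highest. In the wild-type library the median was 1763, with 1444 at the lowest and 4962 at the highest. The middle bins had medians of 1233 and 1168.5 positions. The median member was thus 1.38 times (mutant) and 1.51 times (wild type) as dense as the median middle bin, so the contrast between dense and middle stretches was steeper in the wild-type library.

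The same stretches were dense in either library. When the bins were ranked on the mutant library alone, 447 of the top 478 (93.5%) were members, and their median density in the wild-type library, which had no part in that ranking, was 1.51 times that of the middle bins. When they were ranked on the wild-type library alone, 455 of 478 (95.2%) were members and their median mutant density was 1.38 times that of the middle bins. In both rankings all 478 top bins lay above the median of all bins in the other library. The overlaps with the members are partly fixed in advance, because each library is part of the sum that chose them. Only the densities in the library left out of a ranking are free of this.

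The threshold fell in a continuous run of values. The last members were chromosome 6 from 112000001 to 113000000 with 3137 positions, chromosome 11 from 109000001 to 110000000 with 3135 and chromosome 13 from 38000001 to 39000000 with 3134. The first bins left out were chromosome 19 from 24000001 to 25000000 with 3133, chromosome 2 from 118000001 to 119000000 with 3129 and chromosome 7 from 105000001 to 106000000 with 3128.

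Chromosome 11 gave the largest share of its bins to the densest set, 46 of 119 (38.7%), and chromosome 3 the smallest, 9 of 157 (5.73%). Chromosome 9 followed with 38 of 122 bins (31.1%), chromosome 5 with 45 of 147 (30.6%) and chromosome 7 with 38 of 138 (27.5%). Chromosomes 8 (30 of 126), 19 (14 of 59), 4 (36 of 152), 17 (21 of 93), 15 (22 of 101) and 2 (38 of 177) also lay above the share over all autosomes, 478 of 2392. Below it lay chromosomes 16 (17 of 96), 6 (24 of 147), 12 (18 of 116), 14 (16 of 115), 18 (12 of 88), 1 (26 of 194), 13 (15 of 118) and 10 (13 of 127). Chromosome 1, with the most bins of any, thus supplied fewer members than chromosomes 11, 5, 7, 9, 2, 4 or 8. Chromosome 11 also had the fewest bins among the sparsest 478, with 6, whereas chromosome 3 had 44.

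The members were gathered towards the distal ends. Of the 478, 264 (55.2%) lay in the distal part of their chromosome, 122 in the central part and 92 (19.2%) in the part next to the centromere, when each chromosome is cut into 3 equal parts. Among all 2392 bins the distal share was 34.5%, and among the middle bins it was 33.3%. More members lay in the distal than in the centromeric part on 15 of 19 chromosomes. The shift was widest on chromosome 5, with 35 distal members against 7, and on chromosome 4, with 30 against 3. Chromosomes 13, 14, 16 and 17 did not follow it. Chromosome 13 had 1 member in each outer part and 13 in the central one, and chromosomes 14, 16 and 17 had more centromeric than distal members (8 against 2, 8 against 7 and 10 against 4). Of the last 5 bins of each chromosome, 37 of 95 (38.9%) were members.

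**Figure D1:**
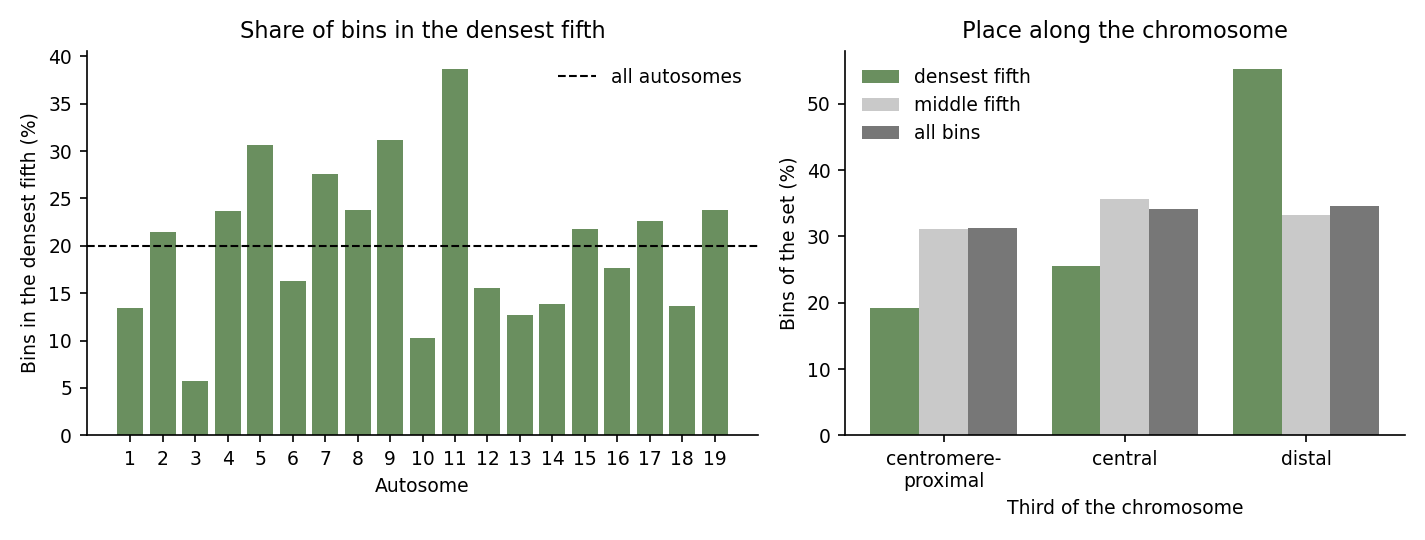
Left, the share of each autosome's eligible 1 Mb bins that belong to the densest set (bars, %), with the share over all autosomes as a dashed line. Chromosome 11 stands highest at 38.7% and chromosome 3 lowest at 5.73%. Right, the share (%) of the densest, the middle and all bins in each of 3 equal parts of the chromosome, from the centromere to the distal end, where 55.2% of the densest bins lie.

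Dense bins lay next to each other. The 478 members formed 195 runs of adjacent bins, and 386 of them (80.8%) had a member directly beside them. The 478 middle bins formed 333 runs, with 249 bins (52.1%) in runs of more than 1. There were 23 runs of 5 or more members, holding 174 bins, against 2 such runs of middle bins. The middle bins are a band between denser and sparser bins, and runs were not counted in the sparsest group. The contrast in run length is therefore only a description of these sets. The longest run lay on chromosome 8 from 117000001 to 130000000 and held 13 bins with a median of 3859 positions. Runs of 12 bins lay on chromosome 2 from 162000001 to 174000000, with a median of 3702, and on chromosome 5 from 111000001 to 123000000, with a median of 3864. The members had 954 neighbouring bins, where a bin between a pair of members is counted for each of them. Of these, 59.3% were members, 25.2% belonged to the next densest group of the ranking and 3.14% to the sparsest.

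Within most members the reads were spread over the whole length. In 338 of the 478 members (70.7%) each of the 10 pieces of 100 kb held more positions than the median 100 kb piece of all bins, 238, which is a description because the same positions ranked the bins. This count depends on overall density, and 0 of the 478 middle bins passed. The fullest 100 kb of a member held a median of 1.22 times the mean of its 10 pieces, against 1.30 times in the middle bins. The fullest 10 kb held a median of 1.70% of a member's positions, against 1.94% in the middle bins. Both of these values also depend on overall density, since counting scatter is relatively smaller where positions are more numerous. No difference in evenness between the sets is therefore read from them. A single 10 kb window held more than 5% of the positions in 2 members, and likewise in 2 middle bins.

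The members with such a window were chromosome 11 from 3000001 to 4000000 and chromosome 9 from 3000001 to 4000000. Both lie at the centromeric end where the first reads begin. The bin on chromosome 11 was the densest of all, with 4757 mutant and 4962 wild-type positions, and 68.1% of them fell in 8 windows of 10 kb. With these windows left out it held 3105 positions and ranked 504, outside the densest set. The bin on chromosome 9 held 1823 and 1601 positions, 70.1% of them in 4 such windows, and without them it held 1023 and fell among the sparsest bins. The fullest window, on chromosome 11 from 3050001 to 3060000, held 557 mutant and 615 wild-type positions, 47.8 times the mean 10 kb window. Windows with more than 5 times the mean numbered 33 on the autosomes, 22 of them in 8 members. Leaving out all 33 and ranking again kept 476 of the 478 members.

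The other 9 of the 10 densest bins lay far closer together, from 4323 to 4459 positions. Of these, 7 had neither a dense 10 kb window nor a 100 kb piece above 1.2033 times their mean. Chromosome 8 from 123000001 to 124000000, inside the longest run, held 2105 mutant and 2354 wild-type positions. Chromosome 4 from 139000001 to 140000000 held 2158 and 2256, and chromosome 11 from 118000001 to 119000000 held 2114 and 2299. The other two were less even. Chromosome 2 from 27000001 to 28000000 held 2109 and 2275, with 192 positions (4.38%) in 1 dense 10 kb window. Chromosome 9 from 46000001 to 47000000 held 2345 and 2019, with 645 positions in its fullest 100 kb and 360 in its emptiest. In these 5 bins the mutant count was the lower one, except in the bin on chromosome 9. Chromosome 5 from 140000001 to 141000000 held 2106 and 2249 positions, and chromosome 2 from 179000001 to 180000000 held 2135 and 2216. Chromosome 4 from 153000001 to 154000000 held 2085 and 2251, and chromosome 17 from 25000001 to 26000000 held 2081 and 2242. All 4 were again lower in the mutant library, although that library has the larger autosomal total.

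After scaling for depth, the densest bins held fewer positions in the mutant than in the wild-type library. Ratios are given as mutant over wild type after scaling to the positions of each library on chromosomes 1 to 19, with a 95% interval from the exact (Clopper-Pearson) limits of the mutant share of a bin's positions. Such intervals cover counting error of these 2 libraries only. The summed ratio was 0.927 in the densest bins (0.924 to 0.930) and 1.019 in the middle bins (1.016 to 1.023). The difference therefore lay well outside counting error. A ratio below 1 was found for 436 members (91.2%), against 43.1% of all 2392 bins and 184 middle bins (38.5%). The 95% interval of the single bin lay below 1 for 279 members (58.4%), against 17.3% of all bins and 25 middle bins (5.23%). It lay above 1 for 4 members (0.837%), against 23.8% of all bins and 70 middle bins (14.6%). Shares called by interval also depend on the number of positions, since more positions narrow the interval. The median sum of positions was 3464.5 in members and 2402.5 in middle bins. With intervals widened by Bonferroni correction for 2392 bins, 41 members lay below 1 and 1 above, against 1.96% and 1.88% of all bins. Repeated reads also differed between the libraries, at 8.22% of all mutant and 11.6% of all wild-type reads in the 2392 bins, and with every aligned read counted the summed ratio of the densest bins was 0.925. Their part in the ratio was not tested further. The 41 members below 1 by the widened interval were spread over 15 chromosomes. They included 7 of 45 members on chromosome 5 and 6 of 38 on chromosome 2. On chromosomes 17 and 12 the shares were larger, with 5 of 21 and 4 of 18 members.

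The ratio fell with density across all bins, and the densest set is the low end of that fall. With all bins cut into 5 groups by density, the summed ratio was 0.971 in the second densest group, 1.09 in the fourth and 1.12 in the sparsest. Within the densest set, the 96 densest members had a summed ratio of 0.909 (0.903 to 0.915) and the 95 least dense members one of 0.947 (0.940 to 0.954), with the 3 groups between them in order at 0.917, 0.928 and 0.940. Spearman's rho between ratio and summed positions was -0.328 over the 478 members, -0.302 over the 478 middle bins and -0.764 over all 2392 bins, each a description across bins of the same 2 libraries. The relation inside the densest set was thus close in size to that inside the middle set. The log2 ratios of members had a standard deviation of 0.09 over bins, where binomial sampling of the same counts gives 0.05.

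**Figure D2:**
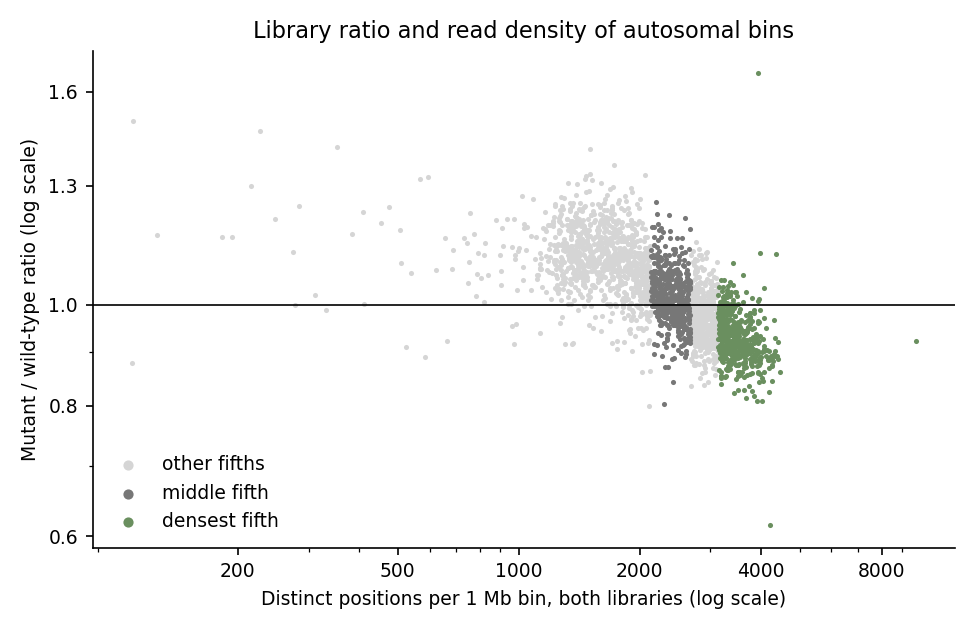
Each point is a 1 Mb autosomal bin, with the distinct positions of both libraries on the x axis (log scale) and the depth-scaled mutant to wild-type ratio on the y axis (log scale). Of the densest bins (green) 436 of 478 lie below a ratio of 1, and the middle bins (dark grey) lie on both sides of it.

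The lower ratio of the densest bins was found on every autosome. On all 19 chromosomes the summed ratio of the densest bins was below that of the middle bins of the same chromosome. In the densest bins it ran from 0.891 on chromosome 17 (0.878 to 0.904) to 0.955 on chromosome 14 (0.939 to 0.972), with a median of 0.926. In the middle bins it ran from 0.989 on chromosome 7 to 1.05 on chromosome 19, with a median of 1.02. The ranges did not overlap. Each member lay below 1 on chromosomes 1, 8, 10, 15, 18 and 19, with 26, 30, 13, 22, 12 and 14 members. The longest runs showed the same values, with 0.919 for the 13 bins on chromosome 8 (0.903 to 0.935), 0.905 for the 12 on chromosome 2 (0.889 to 0.922) and 0.899 for the 12 on chromosome 5 (0.883 to 0.915). Within the run on chromosome 8 the single bins ranged from 0.862 to 0.962. The 37 members among the last 5 bins of the chromosomes had a median ratio of 0.929, close to the 0.923 of all members.

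**Figure D3:**
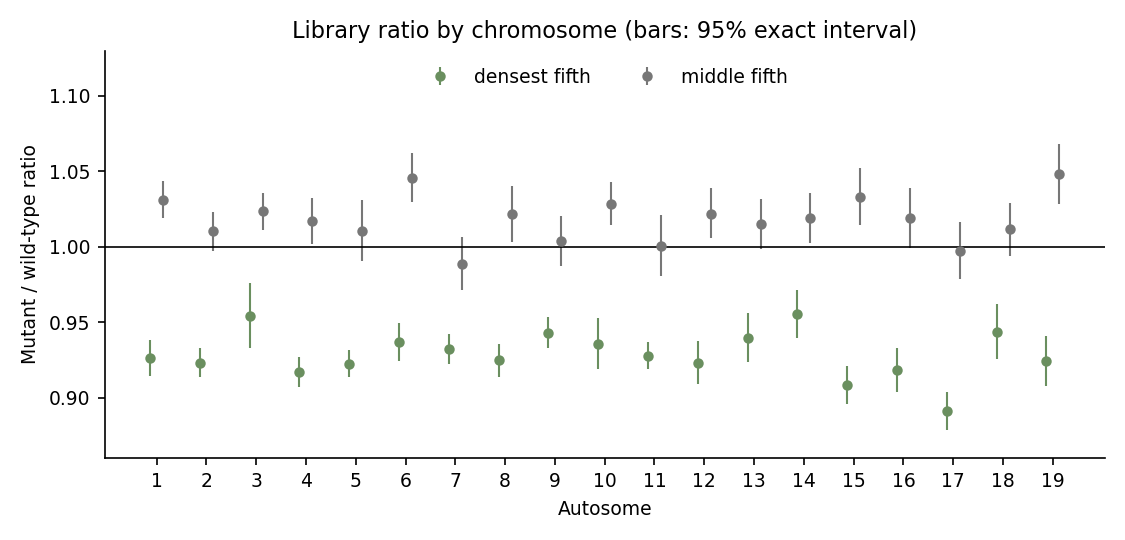
Summed mutant to wild-type ratio (y axis) of the densest bins (green) and the middle bins (grey) on each autosome (x axis), with exact 95% intervals of the counts as bars. The densest bins lie between 0.891 and 0.955 and the middle bins between 0.989 and 1.05, with no overlap.

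A few members departed from this common level, some of them through part of their length. The lowest ratio, 0.615 (0.577 to 0.654), belonged to chromosome 17 from 30000001 to 31000000, with 1645 mutant and 2580 wild-type positions. Its 4 distal pieces of 100 kb had ratios from 0.367 to 0.475 and the other 6 from 0.777 to 1.11. Next came chromosome 4 from 140000001 to 141000000 with 0.808, where the piece from 140200001 had 0.546 and the other 9 lay between 0.738 and 1.002. Chromosome 17 from 27000001 to 28000000 followed with 0.809. In that bin the pieces from 27400001 and from 27500001 had ratios of 0.497 and 0.562 and the other 8 lay between 0.797 and 1.15. Chromosome 5 from 135000001 to 136000000 (0.814) and chromosome 2 from 30000001 to 31000000 (0.818) completed the 5 lowest. In both of these each of the 10 pieces lay below 1, from 0.666 to 0.9497 on chromosome 5 and from 0.726 to 0.964 on chromosome 2. The highest piece of each lay above 0.923, the median ratio of all members, so a departure throughout is not shown.

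The highest ratio, 1.67 (1.56 to 1.78), belonged to chromosome 2 from 77000001 to 78000000, with 2497 and 1444 positions. Only its pieces from 77700001 and from 77800001 stood out, with 3.66 and 2.66, and the other 8 lay between 0.879 and 1.23. This was the 1 member above 1 by the widened interval. Chromosome 6 from 90000001 to 91000000 had a ratio of 1.12 (1.05 to 1.19), with 3 adjacent pieces from 90400001 at 1.57, 1.41 and 1.28 and its first piece, with only 161 positions, at 1.42. Chromosome 9 from 46000001 to 47000000 also had 1.12 (1.05 to 1.19), with its last 3 pieces at 1.31, 1.59 and 1.31. Chromosome 9 from 3000001 to 4000000 had 1.10 (1.03 to 1.17), and these 4 bins are the members whose own interval lay above 1. The fifth highest was chromosome 5 from 128000001 to 129000000 with 1.07 (0.999 to 1.14), whose interval includes 1.

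Repeated reads, those beyond the first at a position, were at this bin size slightly fewer in the densest than in the middle bins of the mutant library, and about equally frequent in both sets of wild-type bins. In the mutant library they made up 7.83% of reads in the densest bins (95% exact binomial interval 7.78 to 7.89%) and 8.22% in the middle bins (8.15 to 8.29%). In the wild-type library the shares were 11.5% (11.5 to 11.6%) and 11.5% (11.5 to 11.6%). Single bins gave the same picture. The median member had 7.68% repeated reads in the mutant library and the median middle bin 8.07%, against 11.4% for both in the wild-type library. The mutant share was lower in the densest than in the middle bins on 16 of 19 chromosomes, all except 3, 6 and 16, and the wild-type share on 12 of 19.

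The order in the mutant library depended on the bin size. With bins of 500 kb the mutant share was 8.39% in the densest and 8.09% in the middle bins. In the wild-type library these bins gave 12.0% against 11.5%. Settings that also leave out crowded places were added after the values were seen. Without positions of 10 or more reads, the 500 kb bins gave 7.98% against 8.09% in the mutant library and 11.7% against 11.5% in the wild-type library. Without the dense 10 kb windows, they gave 7.70% against 8.09% and 11.5% against 11.5%.

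Stacks of identical reads, here 10 or more at a position, were few in the densest and in the 2 sparsest groups of bins and more frequent in those between. In the densest bins no mutant position held 10 or more reads, and the most at 1 position was 9. Of the wild-type positions in the densest bins, 10 held such a stack, with at most 18 reads. The middle bins held 32 such positions in each library and the second densest group 151 and 142. The 2 sparsest groups together held 0 among mutant and 1 among wild-type positions. Single bins reached 46.1% repeated mutant reads in the middle set and 75.1% in the second densest group, against medians of 8.07% and 7.82%. Whether a few such bins supplied the stacks was not tested. Most repeated positions held exactly 2 reads, 58602 (7.05%) of the mutant and 83987 (9.71%) of the wild-type positions in the densest bins. The exception among members was the centromeric bin of chromosome 9, in which repeats made up 40.8% of mutant and 40.4% of wild-type reads. The centromeric bin of chromosome 11, denser still, had 8.99% and 12.2%.

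**Figure D4:**
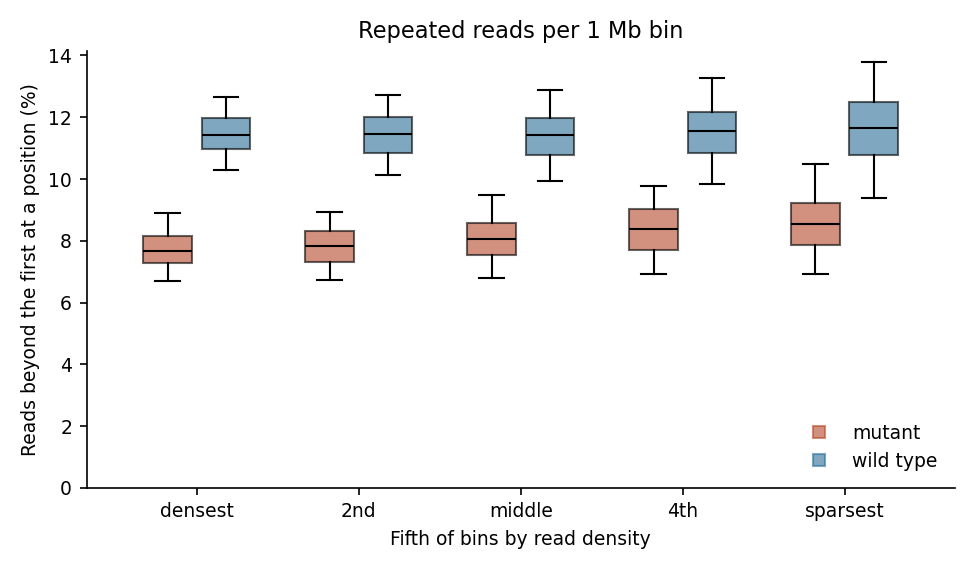
Share of reads beyond the first at a position (y axis, %) in 1 Mb bins of each density group (x axis), for the mutant (red) and wild-type (blue) library. Boxes span the quartiles with the median as a line, and whiskers reach the 5th and 95th percentile. The mutant median rises from 7.68% in the densest to 8.54% in the sparsest bins, and the wild-type medians lie between 11.4% and 11.6%.

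Spacing between reads was measured in pairs, as the frequency of a distance relative to that of pairs 500 to 600 bp apart in the same bins. Opposite-strand pairs, a plus-strand read followed by a minus-strand read, can mark the ends of a fragment, and the most frequent autosomal distance was 216 bp for mutant and 213 bp for wild-type reads. Pairs within 10 bp of these lengths were counted. Because 33 windows of 10 kb supply many of the close pairs, the values are given first with all positions and then with these windows left out and the bins ranked again. Pairs share reads, so intervals of pair counts are too narrow.

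At the fragment length, opposite-strand pairs stood out less in the densest than in the middle bins. In the mutant library they were 1.55 times as frequent as the reference in the densest bins (1.52 to 1.58) and 1.77 times in the middle bins (1.73 to 1.82). In the wild-type library the values were 1.62 (1.59 to 1.65) and 1.90 (1.85 to 1.94). With the dense windows left out they were 1.61 (1.58 to 1.65) against 1.71 (1.66 to 1.75), and 1.67 (1.64 to 1.71) against 1.95 (1.90 to 1.999). The densest bins were then lower on 13 of 19 chromosomes in the mutant library and on 18 of 19 in the wild-type library.

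This contrast belongs to the relative scale. Counted as pairs beyond the reference per 1000 plus-strand positions, with the dense windows left out, the excess in the mutant library was 12.1 ± 0.294 in the densest and 10.8 ± 0.314 in the middle bins (± is the standard error from counting). In the wild-type library it was 14.1 ± 0.302 and 14.0 ± 0.339, a difference within counting error. With all positions the excess was 12.4 ± 0.309 and 12.6 ± 0.331 in the mutant library, and 14.7 ± 0.316 and 15.9 ± 0.366 in the wild-type library. The reference itself rose with density, from 0.778 pairs per bp per 1000 positions in the middle bins to 1.08 in the densest bins for mutant reads, and from 0.845 to 1.12 for wild-type reads.

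Most of the excess at the fragment length was found within a library and not between the libraries. Pairs with 1 read from each library, counted within 10 bp of 214 bp, were 1.19 times as frequent as their reference in the densest bins with all positions (1.17 to 1.20) and 1.36 times in the middle bins (1.33 to 1.38). Without the dense windows the values were 1.18 (1.17 to 1.20) and 1.27 (1.24 to 1.30). The excess between libraries was then 3.72 ± 0.183 pairs per 1000 plus-strand positions in the densest bins, against 12.1 and 14.1 within the libraries. In the middle bins it was 4.01 ± 0.196, against 10.8 and 14.0. Without the dense windows, the densest and middle bins thus differed in this excess only within counting error. With all positions the excess between libraries was lower in the densest bins, at 4.27 ± 0.194 against 5.95 ± 0.214 in the middle bins. In relative frequency without the dense windows, the densest bins were lower than the middle bins on 16 of 19 chromosomes. Pairs in the reverse orientation, a minus-strand read followed by a plus-strand read, were near the reference at the same distance in the densest bins. With all positions they stood at 1.04 for mutant (1.01 to 1.06) and 1.04 for wild-type reads (1.02 to 1.06). Without the dense windows they stood at 1.02 for mutant (0.995 to 1.04) and 1.01 for wild-type reads (0.990 to 1.04).

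Same-strand pairs 5 to 30 bp apart were also relatively fewer in the densest bins, and here the libraries and the pairs between them gave like values. With all positions their frequency in the densest bins was 1.54 times the reference for mutant reads (1.52 to 1.55) and 1.48 times for wild-type reads (1.47 to 1.50), against 1.73 (1.70 to 1.76) and 1.72 (1.69 to 1.74) in the middle bins. Without the dense windows the values were 1.26 (1.24 to 1.28) and 1.29 (1.27 to 1.31) in the densest bins, against 1.45 (1.42 to 1.47) and 1.50 (1.47 to 1.52). Pairs with 1 read from each library gave 1.28 (1.26 to 1.29) and 1.48 (1.46 to 1.50). The densest bins were lower on 17 of 19 chromosomes in each library, and on 18 of 19 for pairs between the libraries. With bins of 500 kb and all positions the order was reversed, at 1.82 in the densest and 1.40 in the middle bins of the mutant library and 1.72 and 1.47 in the wild-type library. With bins of 500 kb and no dense windows it was 1.25 against 1.41 and 1.28 against 1.47. On the scale of excess pairs per 1000 positions the order depended on the dense windows. With all positions the excess was 14.7 ± 0.243 in the densest and 14.4 ± 0.258 in the middle bins of the mutant library, a difference within counting error, and 13.7 ± 0.239 against 15.3 ± 0.275 in the wild-type library. Without the dense windows it was lower in the densest bins of both libraries, at 6.31 ± 0.211 against 8.19 ± 0.230 in the mutant library and 7.38 ± 0.214 against 8.78 ± 0.236 in the wild-type library. At 100 to 200 bp the frequencies with all positions were 1.13 (mutant) and 1.14 (wild type) times the reference in the densest bins, and 1.31 and 1.30 times in the middle bins. Without the dense windows they were 1.12 and 1.13 against 1.17 and 1.20.

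Chromosome 3, which had the fewest members, had the highest same-strand value of the densest bins in both libraries once the dense windows were left out, 1.57 for mutant and 1.68 for wild-type reads. It was among the chromosomes that did not show the lower value in the densest bins, together with chromosome 4 in the mutant library and chromosome 7 in the wild-type library. The difference between chromosome 3 and the others was not tested, and its 9 members hold few pairs.

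**Figure D5:**
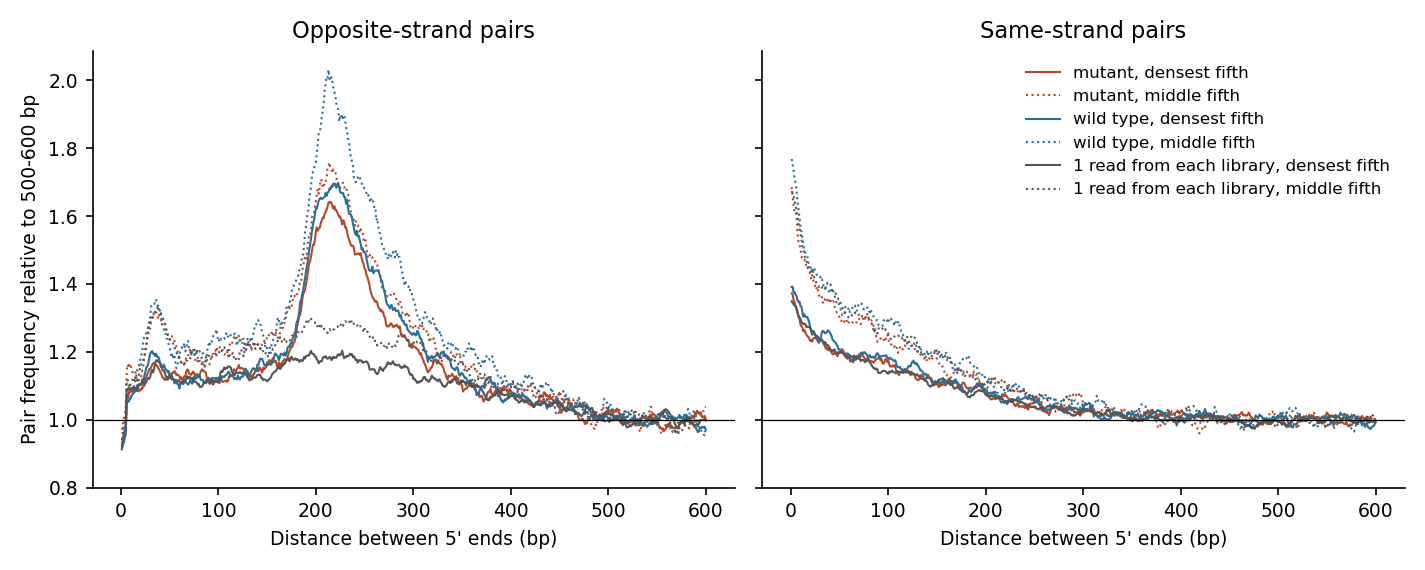
Frequency of read pairs by distance between 5′ ends (x axis, bp), relative to pairs 500 to 600 bp apart (y axis) and smoothed over 11 bp, with dense 10 kb windows left out. Solid lines are the densest and dotted lines the middle bins, for the mutant (red), the wild type (blue) and pairs with 1 read from each library (grey). For opposite strands the peak within a library reaches 1.64 (mutant) and 1.70 (wild type) in the densest bins and 1.76 and 2.03 in the middle bins. Pairs between the libraries reach 1.20 in the densest and 1.30 in the middle bins.

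Few positions were identical in both libraries. In the densest bins 2626 were shared, 0.316% of the mutant positions (0.304 to 0.328%), against 1301 in the middle bins, 0.220% (0.209 to 0.233%). With the dense windows left out the counts were 1807, 0.218% (0.208 to 0.229%), and 1022, 0.173% (0.163 to 0.184%). Such coincidences become more frequent with the density that ranked the bins, so no difference is read from these values. The shares are far below the 7.83% and 11.5% of reads that repeat a position within a library. Both strands were about equally represented in the densest bins, with 417077 of 831748 mutant and 432512 of 865111 wild-type positions on the plus strand.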

How the data were processed

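Each deposited file lists 1 aligned read of 36 bp per line with start, end and strand, placed on the genome by the authors with Bowtie (named in the submitters' processing notes). Its version, its settings and any read filter are not given in the labels. The deposited score column holds 255 throughout and was ignored. The series text names mouse reference 8, but 5′ ends on chromosome 7 reach 152524418, which from general knowledge lies beyond its end, so no annotation or sequence was joined to the bins and none is printed. Distinct positions (chromosome, 5′ end and strand) were counted in 1000 kb bins from the chromosome start. Of 2414 bins, 22 had fewer than 100 positions and were left out. Libraries were scaled to their positions on chromosomes 1 to 19. Fragment length was the most frequent opposite-strand distance of 100 to 400 bp, smoothed over 11 bp. Pairs between libraries used 214 bp. Pairs were assigned to the bin of their left read. Named bins are the 10 densest, the 5 lowest and 5 highest ratios, the 3 on either side of the threshold and the 3 longest runs. The bins, the lists and the settings were chosen with earlier results of these data known. Counting functions were tested on simulated reads. Alternatives covered read counting, ranking, scaling, bin size, dense windows, stacks and the reference distance. Intervals cover counting error only, since PCR copies are not independent. Python 3.11.15 was used with numpy 2.4.6, pandas 2.3.3, scipy 1.17.1 and matplotlib 3.10.9.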

Additional observations from a re-analysis of the deposited data

How the results depend on the processing

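Leaving out a library was not possible. No paired analysis was possible because each genotype has 1 library. The summed ratio of the densest bins stayed below 1 in each alternative run, and below that of the middle bins in each except the top 10% of bins, for which no middle set was computed. For the densest and middle bins it was 0.935 and 1.01 with ranking on the mutant library, 0.910 and 1.001 with scaling to the median bin and 0.931 and 1.02 with bins of 2 Mb. For the densest bins it was 0.921 with ranking on the wild-type library, 0.924 with ranking on the plus strand and measurement on the minus strand, and 0.913 for the top 10% of bins. With widened intervals, the members below 1 numbered 41, since the interval itself is wider.

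For repeated reads (mutant densest, mutant middle, wild-type densest, wild-type middle), leaving out dense 10 kb windows gave 7.71%, 8.08%, 11.5% and 11.4%. Bins of 500 kb gave 8.39%, 8.09%, 12.0% and 11.5%. Such bins without positions of 10 or more reads gave 7.98%, 8.09%, 11.7% and 11.5%, and without dense windows 7.70%, 8.09%, 11.5% and 11.5%, both added after the values were seen. Bins of 1000 kb without positions of 10 or more reads gave 8.15% in the mutant middle bins.

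For opposite-strand pairs in the same order, leaving out dense windows gave 1.61, 1.71, 1.67 and 1.95, a reference of 1000 to 2000 bp gave 1.63, 1.90, 1.69 and 2.13, and 500 kb bins gave 1.60, 1.71, 1.63 and 1.95. Bins of 500 kb without dense windows gave 1.60, 1.71, 1.65 and 1.95. For same-strand pairs these settings gave 1.26, 1.45, 1.29 and 1.50, then 1.57, 1.80, 1.51 and 1.87, then 1.82, 1.40, 1.72 and 1.47, and last 1.25, 1.41, 1.28 and 1.47. Same-strand values thus turned between densest and middle bins with 500 kb bins when dense windows were kept, and the cause was not tested. Gene and base content was not run for lack of an annotation of the matching build. About 1700 positions per bin and library limit a single bin's interval, as in 0.812 to 0.915 for the second densest bin.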
